A study of Sus scrofa domesticus with 4 samples.

Results

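A set of 8 genes of the immediate early and Krüppel-like factor (KLF) kind were sought on a pig gene expression array: KLF6, KLF4, FOS, JUN, MYC, BTG2, EGR1 and ATF3. A probe was taken as a member when its RefSeq accession belonged to one of them. This gave 18 of 43603 probes, for 6 of 3029 named genes: 7 for KLF4, 4 for KLF6, 3 for MYC, 2 for BTG2 and 1 each for FOS and JUN. No probe carried a RefSeq accession of EGR1 or ATF3, so these 2 were not measured here. All 18 probes were among the 22133 tested probes, bright enough in at least 3 of 4 arrays in one condition. The genes were chosen with their treatment ratios already known, so those ratios are described and not used as a test of the genes.

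The series compared explants of porcine myometrium, the smooth muscle wall of the uterus, cultured with adiponectin, a hormone made mainly by fat tissue, with explants cultured without it. The tissue came from the middle of the uterine horns of 4 crossbred gilts (Large White x Polish Landrace, 7 to 8 months old) on days 15 to 16 of gestation. Slices were held in medium for 2 h. Adiponectin (10 µg/ml) was then added to some and nothing to the others, and culture went on for 24 h. Each of 4 Agilent 2-colour arrays held 1 adiponectin-treated and 1 untreated RNA: Cy5 marked the treated RNA on arrays 1 and 3, whereas Cy3 marked it on arrays 2 and 4. The labels speak of 4 separate experiments a group, with duplicate cultures. No label ties an array to a gilt, so the spread between arrays may hold both animal and technical differences.

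Immediate early genes are transcribed within minutes of a growth factor, hormone or stress signal, without new protein synthesis, and their transcripts are as a rule short-lived. FOS and JUN pair as the AP-1 factor, EGR1 and the KLF proteins bind GC-rich promoters through zinc fingers, and ATF3 is a stress-induced repressor of the same leucine zipper class as FOS and JUN. MYC pairs with MAX to drive growth genes, and BTG2 is an antiproliferative protein that binds the CCR4-NOT deadenylase and does not itself bind DNA, so the set is not made of transcription factors alone. In smooth muscle, KLF4 is known as a repressor of contractile genes, and KLF6 as a factor induced by injury. A measurement at 24 h reads the standing transcript level and not the first wave of induction.

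The share of spots well above background was 47.0% to 63.1% in the adiponectin channel and 46.1% to 56.5% in the untreated channel. With 4 arrays the precision was low: the 95% interval of a probe's mean log2 ratio reached 0.39 to either side in the median. All 6 smooth muscle markers with a tested probe, among them ACTA2, DES and CNN1, were well above background in both channels of every array. Tested probes had already passed a brightness filter. All 10 tested macrophage and all 5 tested endothelial markers were as bright by this measure, so it does not single out smooth muscle. Arrays 1, 2 and 3 shared a slide and a scan, and array 4 had another of each. Both conditions were on every array. Pearson's r between the ratios of pairs of arrays, across the tested probes, lay between -0.31 (arrays 2 and 3) and 0.25 (arrays 2 and 4). Probes are not independent replicates.

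KLF6 was the member with the highest adiponectin ratio. Its brightest probe, A_72_P607553, had log2 ratios of adiponectin over untreated of 0.88, 1.00, 0.14 and 0.51 on arrays 1 to 4. All 4 lay above 0, and array 3 was the lowest. The mean was 0.63 ± 0.18 (moderated SE, n = 4 arrays), a 1.55-fold higher signal with a 95% interval from 0.18 to 1.09 on the log2 scale. It did not pass limma's test over all tested probes (adjusted p = 0.856). Refitting with 1 array left out at a time gave 0.45 to 0.82, the lowest without array 1 and the highest without array 3. The fit also holds a dye term, which in such a refit gives the lone array of its dye as much weight as the others together. After another background correction and normalisation, normexp with loess, the array values were 0.97, 0.94, 0.11 and 0.86, so array 4 moved most, and the mean was 0.72.

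The KLF6 level varied less between arrays in the untreated explants than in most tested probes. A level is given here as the processed signal divided by the median processed signal of the tested probes in the same array and channel, and is compared only within a probe. For the brightest KLF6 probe it was 109, 145, 88.8 and 117 times that median with adiponectin on arrays 1 to 4, against 59.5, 72.5, 81.1 and 81.4 times in the untreated channel. The lowest adiponectin level lay above the highest untreated level, so the groups did not overlap in this probe, as in 0.556% of the tested probes. In the other 3 KLF6 probes they overlapped: the lowest adiponectin level was 5.91, 5.06 and 1.71, against a highest untreated level of 6.60, 7.81 and 1.92, from brighter to dimmer. Of the 18 member probes, 1 was without overlap, and since this contrast was known when the genes were chosen, nothing is read from it. The adiponectin levels spanned 1.64-fold over the 4 arrays and the untreated levels 1.37-fold. The adiponectin span stood at the 43.5th percentile of the tested probes and the untreated span at the 9.82th.

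The other KLF6 probes had ratios of the same direction in the mean and of unlike size. A_72_P217292 had log2 ratios of 0.63, 0.51, -0.08 and 0.40 on arrays 1 to 4, with a mean of 0.37 ± 0.17. A_72_P251132 had 0.14, 0.29, -0.01 and 0.02, with a mean of 0.11 ± 0.14. A_72_P262797, the dimmest, had 0.40, 0.49, 0.44 and 0.74, with a mean of 0.52 ± 0.13. The SEs are moderated and n = 4 arrays. On array 3 the dimmest probe thus read 0.44 where the middle pair lay near 0. Over the 4 probes the mean log2 ratio was 0.41, and the SD over probes within an array averaged 0.29, more than the SD of 0.20 over arrays of the 4-probe mean. The probes share a target gene and are not replicates. Where each lies on the transcript is not given in the sources used here.

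**Figure D1:**
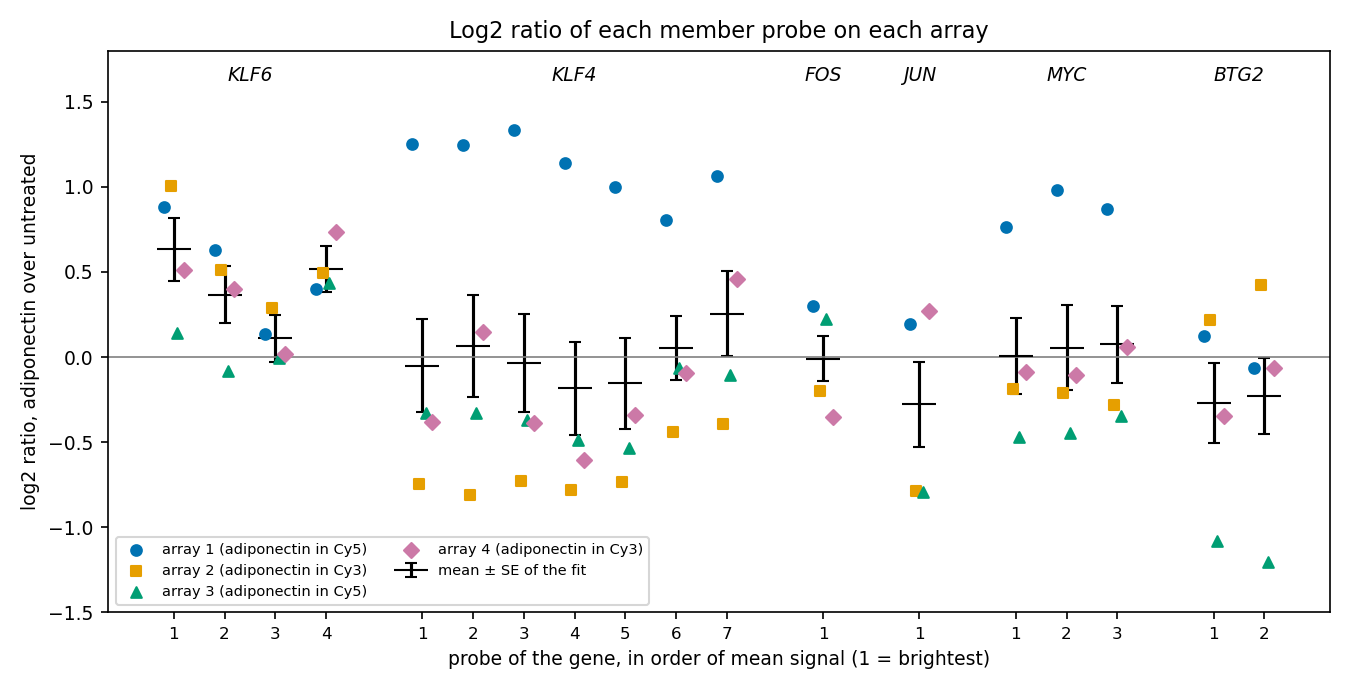
Log2 ratio of adiponectin over untreated (y axis) for the 18 member probes (x axis, brightest first within a gene). Coloured points are the 4 arrays and black bars the mean ± moderated SE of the fit. The KLF6 probes differ in size, from 0.11 to 0.63 in the mean, while all 7 KLF4 probes put array 1 between 0.80 and 1.34, above the other arrays.

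KLF4 had large ratios of opposite sign on different arrays and a mean near 0. Its brightest probe, A_72_P584261, had log2 ratios of 1.25, -0.74, -0.33 and -0.38 on arrays 1 to 4. Array 1 alone was above 0. The fit gave this probe a dye coefficient of 0.51, which is positive where arrays with adiponectin RNA in Cy5 read higher on average. Array 3, with it in Cy5, was however close to array 4, with it in Cy3. The mean was -0.05 ± 0.27 (moderated SE, n = 4; limma adjusted p = 0.981), with an interval from -0.72 to 0.62. Refitted as for KLF6, the treatment value was -0.45 without array 1 and 0.34 without array 3. These are not plain means of the arrays left. On array 1, 1.36% of the tested probes had a higher ratio than this probe.

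The 7 KLF4 probes gave much the same order of arrays. Their log2 ratios ran from 0.80 to 1.34 on array 1, from -0.81 to -0.39 on array 2 and from -0.54 to -0.06 on array 3. On array 4 they ran from -0.61 to 0.46, the widest span, and the 2 probes above 0 there were A_72_P584816 (0.15) and A_72_P303164 (0.46). The SD over the 7 probes within an array averaged 0.22, whereas the SD over arrays of the 7-probe mean was 0.78. The difference between arrays was therefore larger than the difference between probes. Probe means lay between -0.18 and 0.26.

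The level of KLF4 itself differed widely between the untreated explants. The brightest probe stood at 10.0, 19.1, 7.29 and 4.63 times the channel median with adiponectin on arrays 1 to 4, against 4.24, 31.9, 9.20 and 6.01 times in the untreated channel. The adiponectin levels spanned 4.12-fold and the untreated levels 7.53-fold, at the 93.1th and 97.0th percentiles of the tested probes. Array 2 was highest in both channels. The untreated RNA was in Cy3 on arrays 1 and 3, at 4.24 and 9.20, and in Cy5 on arrays 2 and 4, at 31.9 and 6.01. The part of the dye in these levels was not tested. The 7 KLF4 probes agreed on array 2 as the highest untreated level, with untreated spans of 4.29-fold to 8.76-fold. Fewer cells of a type and less RNA per cell cannot be told apart in such bulk RNA.

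The AP-1 members were measured by 1 probe each. FOS had log2 ratios of 0.30, -0.20, 0.22 and -0.35 on arrays 1 to 4. Both arrays with adiponectin RNA in Cy5 were above 0, and both with it in Cy3 below 0. The fit assigned this alternation to its dye coefficient, 0.27, and gave a treatment mean of -0.01 ± 0.13 (moderated SE, n = 4; limma adjusted p = 0.992), with an interval from -0.34 to 0.32. FOS levels were 1.47, 2.46, 1.21 and 0.67 times the channel median with adiponectin, against 1.21, 2.83, 1.04 and 0.85 times in the untreated channel. The order of the arrays was the same in both channels, array 2 highest and array 4 lowest, with spans of 3.69-fold and 3.34-fold. The levels thus differed more between arrays than between the conditions of an array.

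JUN, the partner of FOS in AP-1, split the arrays evenly. Its log2 ratios were 0.19, -0.79, -0.79 and 0.27 on arrays 1 to 4, below 0 on arrays 2 and 3 and above 0 on arrays 1 and 4. These pairs cross the dye orientation, and the dye coefficient was -0.02. The mean was -0.28 ± 0.25 (moderated SE, n = 4; limma adjusted p = 0.892), with an interval from -0.90 to 0.34. It was -0.12 with normexp and loess. Refits leaving out arrays 1 to 4 in turn gave -0.52, -0.01, -0.03 and -0.54, with the arrays left weighted unequally. JUN levels were 95.0, 58.5, 83.2 and 111 times the channel median with adiponectin, against 83.6, 101, 145 and 91.4 times in the untreated channel. The groups overlapped.

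MYC, like KLF4, was above 0 on array 1 and below it on the others by its brightest probe, but was lowest on array 3 where KLF4 was lowest on array 2. Its brightest probe, A_72_P165831, had log2 ratios of 0.76, -0.19, -0.47 and -0.09 on arrays 1 to 4, with a mean of 0.01 ± 0.22 (moderated SE, n = 4; limma adjusted p = 0.997) and an interval from -0.55 to 0.56. The refits gave -0.30 without array 1 and 0.31 without array 3, with the arrays left weighted unequally. The 3 MYC probes lay close together: 0.76 to 0.98 on array 1, -0.28 to -0.19 on array 2, -0.47 to -0.35 on array 3 and -0.11 to 0.06 on array 4. The SD over probes within an array averaged 0.08, against an SD over arrays of the 3-probe mean of 0.57. MYC levels were 13.3, 14.4, 6.01 and 6.72 times the channel median with adiponectin, against 7.88, 16.4, 8.36 and 7.09 times in the untreated channel. The untreated level on array 2 lay far above the other 3.

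BTG2 was set apart by array 3. Its brightest probe, A_72_P428459, had log2 ratios of 0.12, 0.22, -1.08 and -0.35 on arrays 1 to 4, and 1.47% of the tested probes lay below it on array 3. The other probe, A_72_P232792, had -0.07, 0.43, -1.21 and -0.06. The mean of the brightest probe was -0.27 ± 0.24 (moderated SE, n = 4, limma adjusted p = 0.891), with an interval from -0.85 to 0.31. Refits leaving out arrays 1 to 4 in turn gave -0.57, -0.41, 0.03 and -0.13, with the arrays left weighted unequally. BTG2 levels were 25.3, 85.6, 35.0 and 49.9 times the channel median with adiponectin, against 23.4, 73.6, 74.3 and 63.0 times in the untreated channel. By this, the brightest probe, array 1 was lowest in both channels. By the other probe array 3 was lowest with adiponectin, at 13.0 beside 15.3 on array 1. In both probes the adiponectin level on array 3 was less than the untreated one by more than on any other array.

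**Figure D2:**
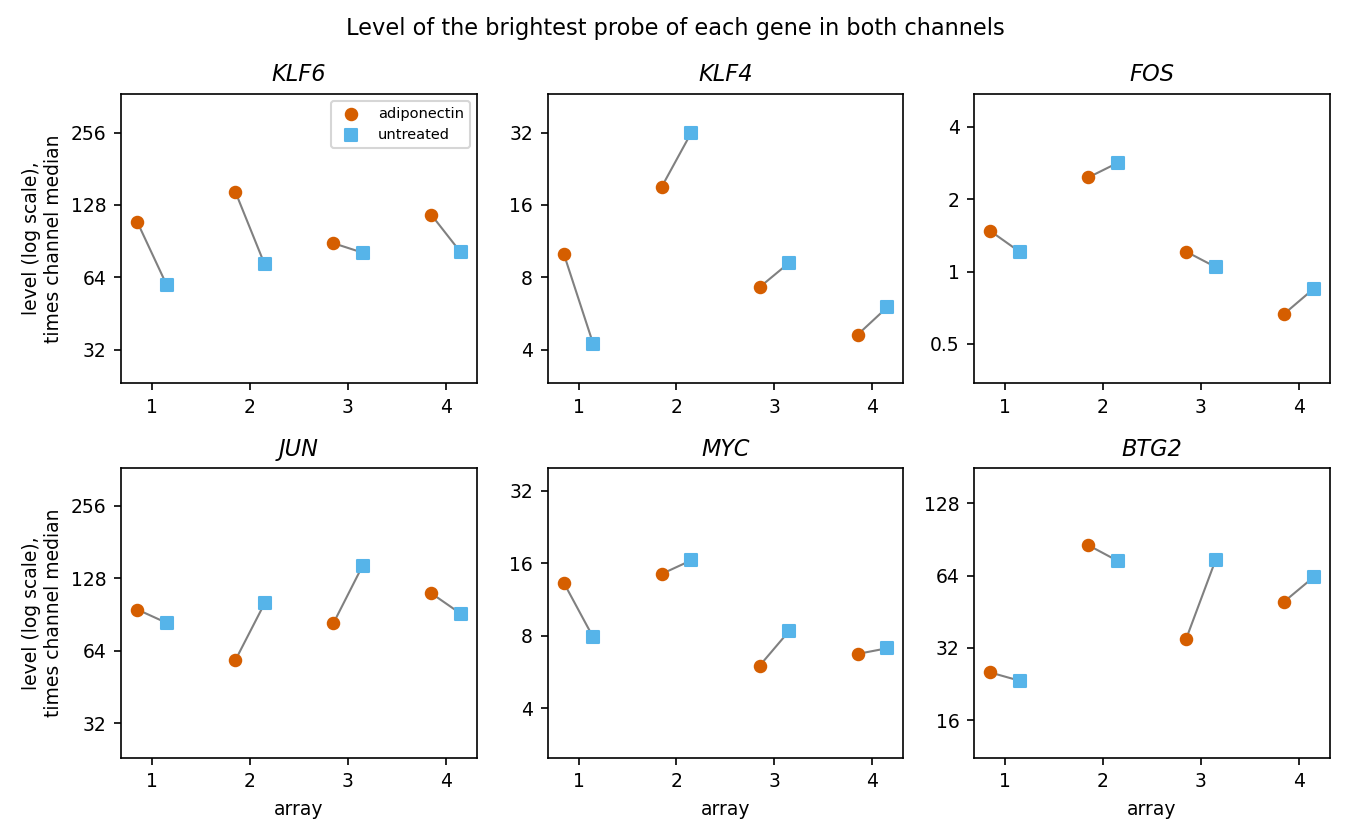
Level of the brightest probe of the 6 measured genes (y axis, log scale, times the median of the tested probes in the same array and channel) on the 4 arrays (x axis), with adiponectin (circles, left) and untreated (squares, right) joined within an array. For this KLF6 probe the circles all lie above the squares, unlike the other 3 KLF6 probes, which are not drawn, and the untreated KLF4 level runs from 4.24 to 31.9.

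Over all 18 member probes, limma called 0 higher and 0 lower with adiponectin at an adjusted p under 0.05, where it called 0% of the 22133 tested probes in either direction. The adjusted p of the member probes lay between 0.856 and 0.997. At an unadjusted p under 0.05 it counted 2 member probes higher, both of KLF6, and 0 lower, where 3.79% of the tested probes were higher and 1.92% lower. The same 2 KLF6 probes were above 0 on all 4 arrays, which 6.36% of the tested probes were, and 0 member probes were below 0 on all 4, against 6.22%. Since the genes were chosen on this contrast, nothing is read from these counts. The median log2 ratio of the 6 genes was -0.03, with 2 of 6 above 0, beside a median of -0.02 over the 2134 tested named genes, of which 45.6% were above 0.

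The ratios of the members differed by array. On array 1, 17 of 18 member probes were above 0, where 51.3% of the tested probes were, and on array 3, 15 of 18 were below 0, against 48.6%. Probes of a gene share their target, so these counts rest on 6 genes. By the brightest probe, KLF6 (0.14) and FOS (0.22) were above 0 on array 3. The pattern above 0 on array 1 and below 0 on arrays 2, 3 and 4 was found in 7 member probes, 5 of KLF4 and 2 of MYC, where 6.14% of the tested probes had it. The ratios were known when the genes were chosen, so nothing is read from these counts. The SD of the ratio over arrays was 0.89 for the brightest KLF4 probe, at the 94.6th percentile of the tested probes, and 0.59 for both JUN and BTG2, at the 84.0th. It was 0.53 for MYC, at the 78.9th percentile, 0.39 for KLF6, at the 60.2th, and 0.32 for FOS, at the 45.9th, with a median of 0.34 over all tested probes. By the brightest probe, the levels of 4 of the 6 genes (KLF4, FOS, MYC and BTG2) spanned at least 2-fold over the arrays in the adiponectin channel, as did 34.4% of the tested probes. The same 4 genes did so in the untreated channel, where 48.3% of the tested probes did.

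**Figure D3:**
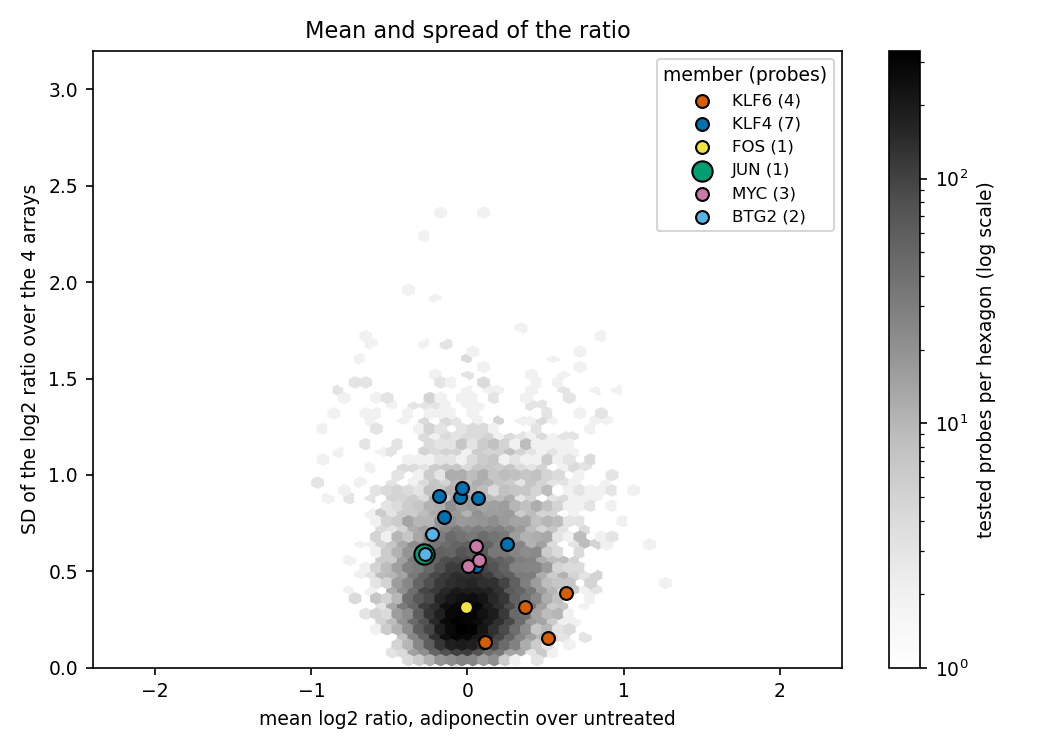
Mean log2 ratio of adiponectin over untreated (x axis) against the SD of the ratio over the 4 arrays (y axis) for the 22133 tested probes (grey, log count per hexagon) and the 18 member probes (coloured by gene). KLF6 probes lie to the right at small to middling spread, and 5 of the KLF4 probes lie near a mean of 0 with an SD between 0.78 and 0.93.

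Cell type markers also differed between the channels of an array, in part on the same arrays. The 6 tested smooth muscle markers of 12 listed had median log2 ratios of -0.69, -0.12, 0.73 and -0.20 on arrays 1 to 4, and the median of the 6 member genes was 0.53, -0.19, -0.40 and -0.22. Smooth muscle markers were thus lowest and the members highest on array 1, and the reverse held on array 3. Their summed level, in multiples of the channel median, ranged from 643 to 1362 with adiponectin and from 651 to 1421 in the untreated channel. The 10 tested macrophage and monocyte markers of 15 listed had medians of 0.48, -0.20, 2.16 and 0.63, with a summed level from 9.43 to 34.9 with adiponectin and from 7.02 to 20.5 untreated. On array 3 the macrophage and the smooth muscle markers both had their highest median. The 5 tested epithelial markers of 10 listed had medians of -0.71, 1.24, -0.95 and 0.69. Their summed level ran from 0.88 to 22.9 with adiponectin and from 1.17 to 9.81 untreated. Every tested macrophage marker was well above background in both channels of all arrays, as were 4 of the 5 epithelial ones. The part of tissue makeup in the ratios of the members was not tested.

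Endothelial, stromal and blood cell markers had medians nearer 0 than the macrophage markers had on array 3. The 5 tested endothelial markers of 10 listed had medians of 0.00, -0.29, 0.07 and 0.47 on arrays 1 to 4, with a summed level from 19.6 to 31.9 with adiponectin and from 19.7 to 36.5 untreated. The 4 tested stromal fibroblast markers of 9 had 0.31, -0.20, -0.20 and -0.03, with sums from 145 to 220 with adiponectin and from 124 to 245 untreated. In both lists the sums of the conditions overlapped. The 5 tested neutrophil markers of 8 had 0.42, -0.34, -0.29 and 0.36, with sums from 4.36 to 16.1 with adiponectin and from 3.35 to 13.7 untreated. Of 11 lymphocyte markers 10 had a named probe and 3 were tested, with medians of 0.28, -0.05, 0.04 and -0.11. None of the listed erythrocyte markers had a named probe here.

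**Figure D4:**
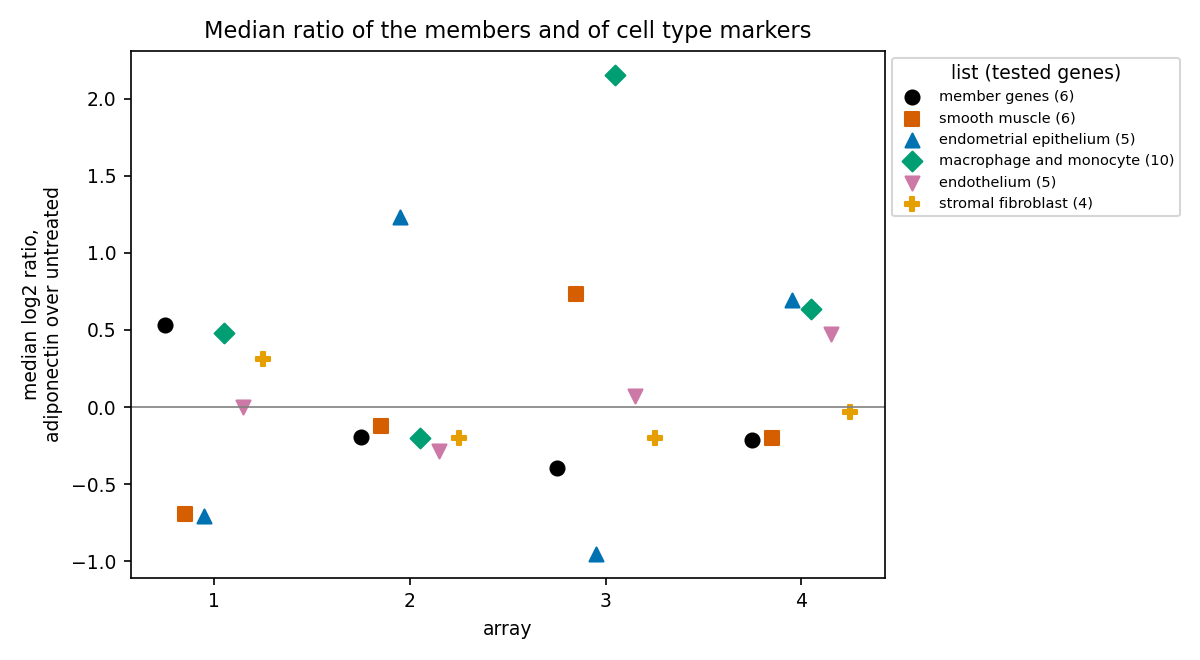
Median log2 ratio of adiponectin over untreated (y axis) by array (x axis) for the 6 member genes and for markers of 5 cell types, with the number of tested genes in the legend. On array 3 the macrophage markers stand at 2.16 and the smooth muscle markers at 0.73 while the members stand at -0.40.

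Related genes gave no call either. Of 38 other immediate early genes listed, 9 had a named probe and 8 were tested, with 0 called in either direction, a median log2 ratio of 0.11 and 6 of 8 above 0. The kinase SGK1, induced by serum and glucocorticoids, was highest at 0.29 ± 0.18, with 1.05, -0.01, 0.20 and -0.09 on arrays 1 to 4. The orphan nuclear receptor NR4A2 was lowest at -0.21 ± 0.15, with 0.19, -0.28, -0.24 and -0.50. For both, array 1 was the highest, as for KLF4, FOS and MYC. PTGS2, the inducible cyclooxygenase, named here after its values were seen, had the widest swing of this list, 1.52 on array 1 and -1.46 on array 3.

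The rest of the KLF family gave values on both sides of 0. Of 19 KLF and SP-related factors listed, 13 were tested, all of them KLF genes, with 0 called, a median of 0.01 and 9 of 13 above 0. KLF11, a repressor linked to TGF-beta signalling, was highest at 0.33 ± 0.25, with 1.13, -0.04, -0.22 and 0.46 on arrays 1 to 4, and its probes ran from -0.09 to 0.33. KLF12 was lowest at -0.16 ± 0.32, with -0.81, -0.58, 1.20 and -0.46. KLF2, a flow-sensitive factor of endothelium, stood at 0.01 ± 0.24. KLF5, a growth-promoting factor of epithelium and smooth muscle, stood at -0.10 ± 0.16. KLF9, a progesterone receptor partner in the uterus of mice, stood at -0.11 ± 0.17, and KLF10, an early target of TGF-beta, at 0.01 ± 0.16. The difference between KLF6 and these genes was not tested.

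Partners and regulators of the members were sparsely measured. Of 19 genes around ATF4, ATF3 and the stress response, 7 were tested, with 0 called, a median of 0.16 and 5 of 7 above 0. CEBPG was highest at 0.39 ± 0.23. ATF4, which induces ATF3 under amino acid and endoplasmic reticulum stress, stood at -0.06 ± 0.20, and DDIT3, a target of ATF4, at 0.19 ± 0.13. Of 25 serum response, CREB and ERK pathway genes, which act upstream of FOS and EGR1, 2 were tested: MAP2K1 at 0.07 ± 0.14 and MYOCD at 0.04 ± 0.15. Of 18 genes of the MYC network and its targets, 3 were tested, with the mitochondrial chaperone HSPD1 highest at 0.03 ± 0.13 and the glycolytic enzyme LDHA lowest at -0.08 ± 0.37. LDHA had 1.06, 0.16, -1.28 and -0.26 on arrays 1 to 4, with array 1 highest and array 3 lowest, as for MYC. The other tested genes of this list did not share that order. HSPD1 was lowest on array 1, at -0.20, and ODC1 was highest on array 3, at 0.36. Of 13 BTG, TOB and deadenylase genes, 3 were tested, all above 0 in the mean: TOB1 at 0.23 ± 0.26, BTG1 at 0.10 ± 0.15 and BTG3 at 0.10. TOB1, BTG3 and BTG1 were each highest on array 1, at 0.97, 0.68 and 0.56, where BTG2 was at 0.12. None of these genes passed limma's test (smallest adjusted p over the lists 0.862), and values after ± are moderated SEs with n = 4 arrays.

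**Figure D5:**
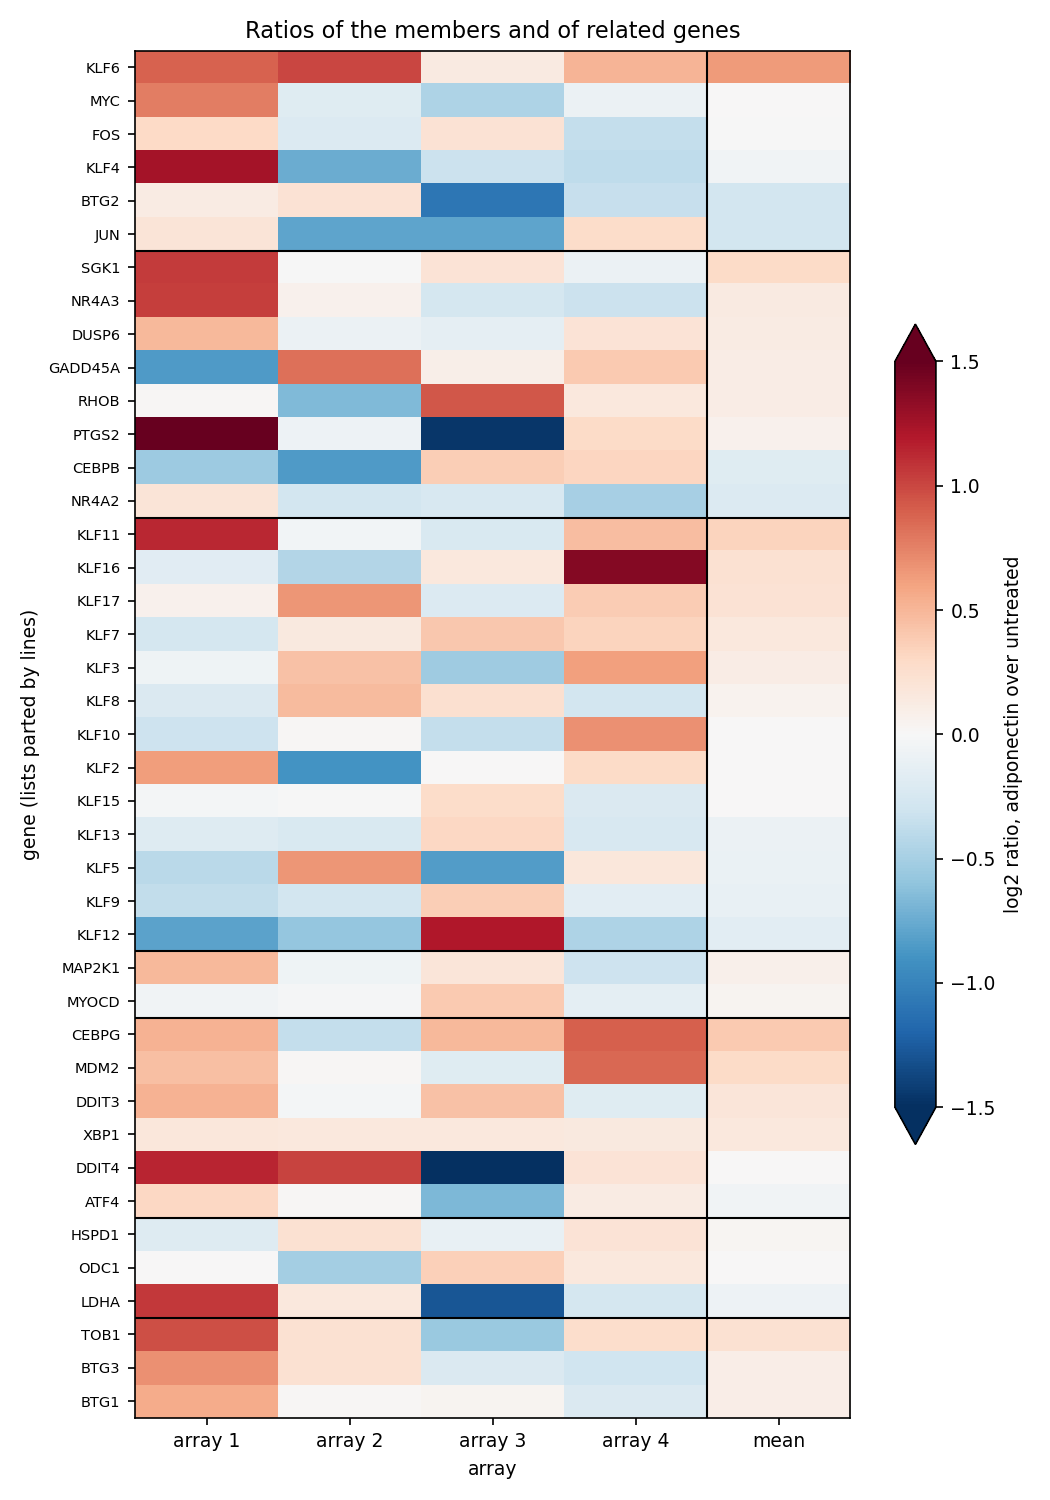
Log2 ratio of adiponectin over untreated (colour) on the 4 arrays and in the mean (columns) for the 6 members (top block) and, block by block downwards, other immediate early genes, other KLF genes, ERK and serum response genes, 6 of the 7 ATF4 and stress genes, the MYC network and the BTG and TOB family. The KLF6 row is above 0 on every array, from 0.14 to 1.00, while KLF4 and MYC are above 0 on array 1 and below it on the other arrays.

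The genes whose 4 array ratios lay nearest to those of KLF6 were sought among 2133 other tested named genes, by the root mean square difference over the 4 arrays. RSAD2, an interferon-induced antiviral protein, was nearest at 0.17, with log2 ratios of 0.65, 1.16, 0.11 and 0.69 on arrays 1 to 4. It was followed by IFIT3, another interferon-induced gene, at 0.22, RND3 at 0.23, ANGPT1, a ligand of the endothelial TIE2 receptor, at 0.26 and AMPD1, an AMP deaminase, at 0.26. Their mean log2 ratios were 0.65 ± 0.17, 0.44 ± 0.18, 0.59 ± 0.20, 0.49 ± 0.14 and 0.62 ± 0.26, each with a limma adjusted p of 0.856. All 5 were lowest on array 3, as KLF6 was. The probes of IFIT3 disagreed, at -0.01 and 0.44. With 4 arrays such likeness is a description only.

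JUN had the lowest mean of the members, -0.28 beside -0.27 for BTG2, a difference far within their SEs. With normexp and loess BTG2 was the lower, at -0.29 beside -0.12. The refits without array 1 or array 2 also put BTG2 lower, but their dye term weighted the arrays left unequally. The genes nearest to JUN were BMP2 at a root mean square difference of 0.19, IGFBP2 at 0.19, RADIL at 0.21, S100A8 at 0.21 and MYBL2 at 0.24. BMP2, a bone morphogenetic protein ligand, had log2 ratios of 0.43, -0.69, -0.56 and 0.13 on arrays 1 to 4. All 5 were below 0 on arrays 2 and 3 and above 0 on arrays 1 and 4. They were picked for likeness to the JUN ratios, so nothing is read from this shared pattern. S100A8 is a listed neutrophil marker. Among the members themselves, KLF4 and MYC were the nearest pair, at 0.41, and KLF6 and JUN the farthest, at 1.07.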

How the data were processed

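Per the file headers, the authors scanned 4 two-colour arrays and extracted spot intensity with Agilent Feature Extraction 10.7.3.1. The deposited log10 ratio of Cy5 over Cy3 is that of the processed intensity, which per the file headers had its background subtracted and its dyes normalised. It was divided by log10 of 2, and its sign was turned where the labels' dye fields put adiponectin RNA in Cy3. The labelling protocol text describes adiponectin RNA in Cy5 only. The authors' deposited series table holds log2 values with scale, centring and direction unstated. Over probes bright in both channels it had a slope of 1.00 against the turned ratio on each array, so its scale and direction match, and its column medians were -0.10, 0.13, -0.14 and 0.16. How its dim probes were made is unknown.

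Control and outlier-marked spots were left out and spots of a probe averaged. The tested probes had a signal well above background in 3 or 4 arrays of either condition. RefSeq accessions were matched to Sscrofa11.1 names: 6700 of 43603 probes received 1 symbol, 0 received several and 36903 none. Array files name no build, so no coordinates are given, and no probe sequence is shown. limma 3.58.1 (R 4.3.3) fitted treatment and dye, two-sided, Benjamini-Hochberg over all tested probes. The fit was tested on simulated data. A gene was represented by its brightest probe.

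Members and lists were chosen with earlier results of these data known. Named genes were all members, fixed related genes, the highest and lowest of each list, and the 5 nearest to KLF6 and to the lowest member; 1 gene of the stress list is counted there but not reported here by name. Alternatives were normexp (offset 50) with loess, median centring, no dye term, no or a stricter dimness filter, slide as a block, the series table, all probes of a gene averaged and leaving out each array.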

Additional observations from a re-analysis of the deposited data

Results flagged for a closer look

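Of 58 sets of 4 array values, 2 held an array well apart from the rest. Chance alone would give about 1 in 20, or 2.9 sets. The KLF4 probe A_72_P577783 had a log2 ratio of adiponectin over untreated of 1.14 on array 1 and between -0.78 and -0.49 on the other arrays. The other 6 KLF4 probes also had their highest ratio on array 1. The untreated level of MYC, by its brightest probe, was 16.4 times the channel median on array 2 and between 7.09 and 8.36 times on the others.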

How the results depend on the processing

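Over 4 arrays, limma called 0 of the 22133 tested probes and 0 of the 18 member probes, and 0 member probes under each alternative run. Leaving out 1 array gave 0 to 12 called probes in all, the 12 without array 3 and none of them a member. The count of member probes of the same sign on every array was 2 and ranged from 2 to 9, the 9 without array 1 and 4 without array 3; fewer arrays make a shared sign easier. The count of genes with an untreated span of at least 2-fold was 4 and ranged from 2 to 4, the 2 without array 2, and it was 5 with normexp and loess. The alternatives for levels were chosen after seeing the data. Leave-one-out log2 changes ran from 0.45 to 0.82 for KLF6, -0.45 to 0.34 for KLF4, -0.047 to 0.029 for FOS, -0.54 to -0.01 for JUN, -0.30 to 0.31 for MYC and -0.57 to 0.030 for BTG2. With normexp and loess FOS was at 0.021 and MYC at -0.051, and with slide as a block, which equals leaving out array 4, at 0.029 and -0.020. These sign changes lie near 0. Larger ones came from refits without an array: KLF4 was at 0.34 without array 3, and MYC at -0.30 without array 1. These refits kept the dye term, so the lone array of its dye weighed as much as the others together. With all arrays KLF4 was at -0.05 and MYC at 0.01. The array left out and the changed weights were not told apart, and the cause of the sign changes was not tested. KLF6 and JUN kept their sign in every alternative, and KLF6 was 0.41 with its probes averaged. The ratio pairs 1 treated and 1 untreated RNA within each array, and the fit used the 1 group of these ratios, so no further paired analysis was run. EGR1 and ATF3 were not analysed here.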
